A study of Caenorhabditis elegans with 2 samples.

Results

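Binding of a tagged protein was described at the genes of the RNA exosome, the complex that trims and degrades RNA from its 3′ end. The series is a ChIP-seq experiment on eGFP-tagged R02D3.7 in L2 larvae of Caenorhabditis elegans, taken whole and of mixed sex, with 2 biological replicates in 1 group. Both libraries came from strain OP218, which carries unc-119(ed3) on chromosome III and the insertion wgIs218 for the tagged protein. Whole larvae mix all tissues, so the cells behind a region cannot be told apart. The listed genes were chosen by name, with the signal and rank of exos-2 already known from these data, so their values are a description and no test was made of them. Of the 8 listed symbols, 7 matched a protein-coding gene in the Ensembl annotation, out of 19973 such genes on the nuclear chromosomes. These were exos-1, exos-2, exos-3, exos-4.1, exos-4.2, exos-9 and crn-5. The symbol exos-10 was not matched, and the gene that RefSeq describes as the homolog of exosome component 10, crn-3, is given separately. A gene was assigned every summit from 1000 bp upstream to 200 bp downstream of one of its annotated 5′ ends.

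The data are lists of regions on the ce11 build. One list of 30000 candidate regions was called for each replicate and one of the same length for the joined reads of both, and 542 regions of the joined list remained after the irreproducible discovery rate (IDR) step. Each region has a signal value from the authors' peak caller, whose scale is not stated, and its rank by signal within its list. Read depth is unknown, and signal was about 2.76 times higher in replicate 1 than in replicate 2 at the median IDR peak (quartiles 2.19 and 3.56, n = 528 peaks found in both), so ranks are given beside signals. The weakest IDR peak had a signal of 39.120 and the strongest candidate left out had 39.101. The IDR list is thus the top 542 of the joined list by signal, and not every region in it was found in both replicates. No control library was analysed here, and whether the same regions appear without the tagged protein was not tested.

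The exosome has a barrel-shaped core through which RNA is threaded. In eukaryotes the barrel is a ring of proteins related to the bacterial enzyme RNase PH, capped by subunits with RNA-binding domains, and most of its catalytic activity comes from attached nucleases of the DIS3 and RRP6 families. It matures ribosomal RNA and small nucleolar RNA precursors in the nucleus and degrades messenger RNA in the cytoplasm. Among the genes described here, exos-1, exos-2 and exos-3 encode homologs of the cap subunits CSL4, RRP4 and RRP40. The ring is represented by exos-4.1 (RRP41), exos-9 (RRP45) and crn-5 (RRP46). The product of exos-4.2 is named only by its phosphorolytic exoribonuclease domain in RefSeq.

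Regulatory sequence is shown first for exos-2, which had the only IDR summit among the 7 genes. The run below is its IDR region from its first base to the base before the annotated 5′ end (chrIV:6415212-6415477, 266 bases, plus strand, RefSeq sequence of WBcel235, the same assembly as ce11). The summit is base 151. Capitals mark the only match in it to the 4 words searched on both strands, which were taken from earlier results on these peaks. One of them, CGTAAATC, is an extension of another, CGTAAA. The remaining pair were ACGCGC, a GC-rich word, and, searched in the same way, GACGCA. The match runs from base 141 to base 146 and reads CGTAAA on the minus strand.
exos-2: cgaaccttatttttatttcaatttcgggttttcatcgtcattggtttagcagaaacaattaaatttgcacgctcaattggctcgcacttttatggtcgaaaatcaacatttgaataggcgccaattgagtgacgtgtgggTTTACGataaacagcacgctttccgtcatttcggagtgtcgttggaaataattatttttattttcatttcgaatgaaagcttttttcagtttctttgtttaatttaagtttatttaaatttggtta

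For contrast, the 101 bases around the strongest summit at exos-4.1 (chrIV:13098909-13099009, plus strand), which stayed outside the IDR list, held none of these words. The window around the IDR summit of dis-3 (chrIV:10097036-10097136, plus strand), the gene of the attached nuclease, held a pair of them, again in capitals.
exos-4.1: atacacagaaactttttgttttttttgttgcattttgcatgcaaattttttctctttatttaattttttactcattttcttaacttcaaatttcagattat
dis-3: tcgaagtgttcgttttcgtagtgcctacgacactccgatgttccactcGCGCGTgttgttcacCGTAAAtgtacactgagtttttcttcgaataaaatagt

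Among the cap subunit genes, exos-2 (WBGene00022232, IV, 6415478 to 6417460, plus strand) carried one of the strongest regions of the experiment. Its region had a signal of 769 and rank 7 in the IDR and joined lists, 576 and rank 7 in replicate 1, and 193 and rank 10 in replicate 2. It was among the 10 strongest in every list, and the replicate signals stood in a ratio of 2.98, near the 2.76 of the median IDR peak. For comparison, the median IDR peak in a promoter window had a signal of 73.3 (n = 454). The summit lay between genes, 116 bp upstream of the 5′ end in the joined reads and in replicate 1 and 89 bp upstream in replicate 2, a shift of 27 bp. Over the 454 IDR summits in promoter windows, the median position relative to the closest 5′ end was -173 bp (quartiles -268 and -99 bp, negative upstream). The region was 281 bp wide, against a median of 330 bp for IDR regions. No other protein-coding gene had this summit in its window, as for 218 of 454 IDR summits in promoter windows. The piRNA gene 21ur-5528, on the other strand, had it 588 bp upstream. The nearest protein-coding gene upstream is nlp-71, a neuropeptide-like gene on the other strand whose nearer end lies 1896 bp away.

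The other cap subunit genes were far weaker. At exos-3 (WBGene00010325, I, 10518379 to 10519258, plus strand) the strongest summit, 54 bp upstream, had a signal of 15.0 and rank 14879 in the joined list, and 20.2 and rank 1094 in replicate 1. Replicate 2 had no summit in the window. That summit also lay in the window of nlp-4, which is transcribed the other way. At exos-1 (WBGene00012966, III, 11009043 to 11010588, plus strand) no list had a summit in the window. The IDR list did hold a summit just beyond the window of each. That of exos-1 lay 1110 bp upstream (signal 53.8, rank 371), and that of exos-3 lay 1134 bp upstream (signal 46.0, rank 435). The regions around both summits reached into the windows.

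**Figure D1:**
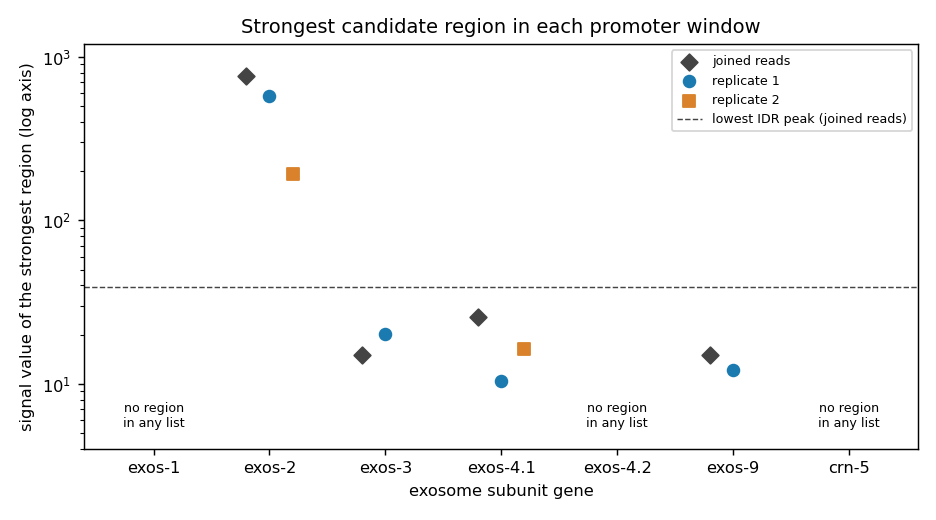
Signal value of the strongest candidate region in the promoter window of each matched gene (log axis), for the joined reads and both replicates; the dashed line is the weakest IDR peak. The line is on the scale of the joined reads, and the signal at rank 542 was 29.1 in replicate 1 and 14.7 in replicate 2. At exos-2 the 3 values ran from 193 to 769. Those of exos-3, exos-4.1 and exos-9 lay between 10.4 and 25.5, and exos-4.1 in replicate 2 (16.4) was above the rank 542 signal of that list. At exos-1, exos-4.2 and crn-5, marked as without a region, no list had a summit in the window.

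Of the ring subunit genes, exos-4.1 (WBGene00007201, IV, 13098999 to 13100617, plus strand) came closest to the IDR list, and the replicates differed there. Its summit had a signal of 25.5 and rank 1535 in the joined list. Replicate 1 gave 10.4 and rank 14627, and replicate 2 gave 16.4 and rank 390. Replicate 2 alone would thus place exos-4.1 among its own top 542, where the last region had a signal of 14.7, and replicate 1 would not, its region of rank 542 having a signal of 29.1. The ratio of replicate 1 to replicate 2 was 0.634. A ratio this low or lower was seen at 2 of 528 IDR peaks (0.379%), and at 33 of 1894 joined regions of rank 543 to 3000 found in both replicates (1.74%, median ratio 1.78). The summits also differed in place, at 40 bp upstream in the joined reads and replicate 1 and 95 bp upstream in replicate 2. The same summit lay in the windows of tin-9.2, which encodes a mitochondrial import protein and starts 4 bp upstream of exos-4.1 on the same strand, and of dli-1, a dynein light intermediate chain gene transcribed the other way.

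At exos-9 (WBGene00018154, III, 7196224 to 7198073, minus strand) the only summit in the joined list lay inside the gene, in an intron 97 bp downstream of a 5′ end, with a signal of 15.0 and rank 14843. Replicate 1 had 12.2 and rank 8229 at 68 bp downstream, in a coding exon, and replicate 2 had no summit in the window. No list had a summit in the windows of exos-4.2 (WBGene00000202, III, 860198 to 862198, plus strand) or crn-5 (WBGene00000798, II, 10592752 to 10593591, plus strand). In their own windows, exos-4.1 had a candidate in all 3 candidate lists and the similarly named exos-4.2 in none of them. The summit of exos-4.1 was also that of tin-9.2 and dli-1, so it cannot be given to exos-4.1 alone. The gene exos-4.2 lies behind K02F3.12 on the same strand, with a gap of 108 bp, and the start of its run is described below.

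**Figure D2:**
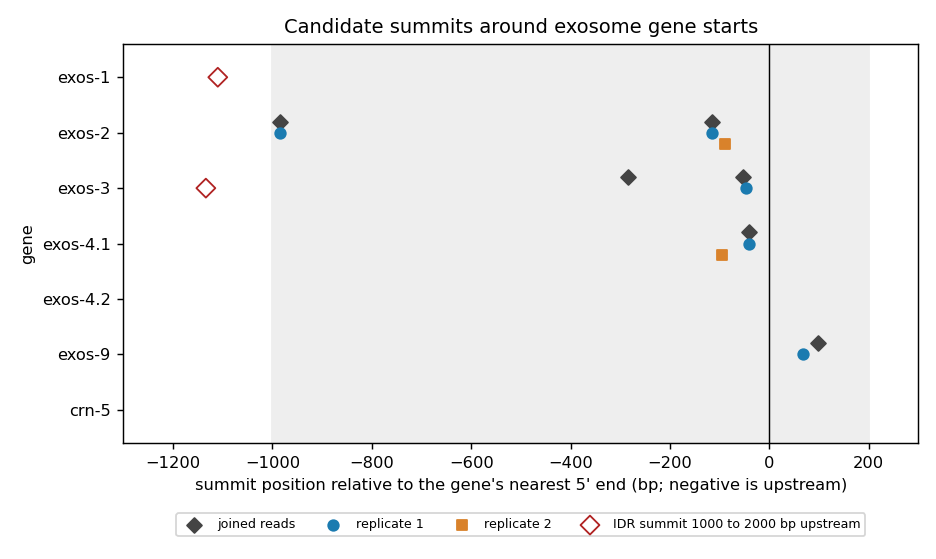
Summits relative to the nearest 5′ end of each gene (bp, negative upstream), by list; the shaded band is the promoter window and open diamonds are IDR summits beyond it. At exos-2 the strongest summits of all 3 candidate lists lie from 116 to 89 bp upstream, with a further one 984 bp upstream in the joined reads and replicate 1, and the open diamonds of exos-1 and exos-3 lie at 1110 and 1134 bp upstream.

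These counts were set beside those of all protein-coding genes. An IDR summit lay in the window of 1 of the 7 exosome genes, against 3.47% of all genes. A candidate summit of the joined list lay in the windows of 4 of 7, against 43.0% of all genes. In replicate 1 the same 4 genes had a candidate, against 42.6% of all genes, and in replicate 2 only exos-2 and exos-4.1 had one, against 41.9%. In the top 542 of replicate 1, exos-2 was the one exosome gene, against 3.46% of all genes, and in that of replicate 2 there were exos-2 and exos-4.1, against 2.77%. With 7 genes, of which exos-2 was known to be strong, these counts are not read as a property of the complex. Only 13 protein-coding genes had a joined summit of rank 7 or better (0.0651%), while 1288 had one at the rank of exos-4.1 or better (6.45%) and 5229 at that of exos-9 or better (26.2%).

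Several exosome genes lie close behind another gene on the same strand, an arrangement common in C. elegans, where operons are transcribed from the promoter of their first gene. Runs were therefore formed from protein-coding genes of 1 strand with gaps of up to 500 bp, a rule set after the data were seen, which uses spacing alone and no operon annotation. Overlapping genes of 1 strand also fall in the same run. Of the 7 genes, 5 were not the first of their run, against 20.9% of all protein-coding genes. Among these, exos-4.1 does not lie behind its neighbour but overlaps tin-9.2, which starts 4 bp before it. For exos-1 the run begins with Y48A6B.3, which encodes a putative H/ACA ribonucleoprotein subunit of the pseudouridylation machinery and ends 114 bp before exos-1 starts. The IDR summit 1110 bp upstream of exos-1 is that of Y48A6B.3, 289 bp upstream of its 5′ end. Its signal was 53.8 and rank 371 in the joined list, 29.5 and rank 535 in replicate 1, and 25.2 and rank 198 in replicate 2, inside the top 542 of both replicates. The summit also lay in the window of fipr-17, which is transcribed the other way.

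The runs of the other genes began at summits outside the IDR list. That of exos-4.2 begins with tag-51, whose 5′ end lies 5977 bp upstream and whose strongest summit had a signal of 25.9 and rank 1425 in the joined list, rank 7854 in replicate 1 and rank 4749 in replicate 2. That of crn-5 is 7 genes long up to crn-5, has crn-3 just before it with a gap of 100 bp, and begins with rpb-6, a subunit gene of the nuclear RNA polymerases. The summit at rpb-6 had a signal of 23.8 and rank 2072 in the joined list and rank 917 in replicate 1, with none in replicate 2. That of exos-9 begins with pfd-5, a prefoldin subunit gene, where the joined signal was 22.3 at rank 2792. With each gene given also the IDR summit of the first gene of its run, 2 of the 7 exosome genes had one, exos-1 and exos-2, against 4.88% of all protein-coding genes.

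The summits of pfd-5 and tin-9.2 held none of the 4 words, and the other run starts are shown with theirs in capitals. They are 101 bases around the strongest joined summit of Y48A6B.3 (chrIII:11007883-11007983), tag-51 (chrIII:854127-854227) and rpb-6 (chrII:10579066-10579166), all on the plus strand.
Y48A6B.3: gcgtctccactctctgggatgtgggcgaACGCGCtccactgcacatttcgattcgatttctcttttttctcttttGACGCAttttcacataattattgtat
tag-51: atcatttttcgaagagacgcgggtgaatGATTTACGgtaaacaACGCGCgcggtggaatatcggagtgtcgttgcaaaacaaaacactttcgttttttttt
rpb-6: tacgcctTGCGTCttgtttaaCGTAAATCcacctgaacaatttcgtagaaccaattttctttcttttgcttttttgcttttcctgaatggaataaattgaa

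Within 50 bp of the strongest joined summit, 1 of the 4 exosome genes with a summit had any of the 4 words, namely exos-2. Any of them lay in the same window at 60.1% of IDR summits in promoter windows (n = 454), at 11.1% of joined summits of rank 543 to 3000 and at 7.21% of all joined summits outside the IDR list. In windows of the same length from 150 to 50 bp upstream of protein-coding 5′ ends the share was 9.95%. The word CGTAAA, with its nearest base 5 bp from the summit of exos-2, lay at 31.7% of IDR summits in promoter windows and at 4.96% of those upstream windows. Where it lay at such an IDR summit, its median distance was 15.0 bp (quartiles 7 and 28 bp, n = 144). At the starts of the 5 runs, 3 summits held a word. The window of tag-51 held CGTAAATC and ACGCGC, that of rpb-6 held CGTAAATC and GACGCA, that of Y48A6B.3 held ACGCGC and GACGCA, and those of pfd-5 and of tin-9.2, whose summit is also that of exos-4.1, held none. CGTAAATC lay at 23.3% of IDR summits in promoter windows and at 1.14% of joined summits of rank 543 to 3000, where both tag-51 and rpb-6 stand. The words came from earlier results on these peaks, and the run rule was set after the data were seen. These shares are therefore a description and no test of the words. At rpb-6, replicate 2 had no summit in the window. In the whole promoter window, CGTAAA lay at 4 of the 7 exosome genes, against 39.9% of all protein-coding 5′ ends. Each exosome gene was searched at its outermost 5′ end, whereas that share is over all annotated 5′ ends. The word is thus common in such windows, and with 7 genes the count is not read as a difference. The 101 bases at the strongest summit of exos-2 had 38.6% GC, against 45.8% ± 7.78 at IDR summits (mean ± SD over 542 windows). At the summits outside the IDR list the share was 28.7% for exos-3, 20.8% for exos-4.1 and 30.7% for exos-9. No GC share was taken over all such summits.

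By rank over the 3 candidate lists, the IDR region most like that of exos-2 was the one shared by rps-12, a small ribosomal subunit protein gene, and ska-3, a kinetochore protein gene (III, 5679004 to 5679257, signal 757). It had ranks 9, 8 and 9 in the joined list, replicate 1 and replicate 2, against 7, 7 and 10 at exos-2. The absolute log2 ratios of the ranks summed to 0.71. That was the smallest sum over the IDR regions in promoter windows found in all 3 lists, which number 444 with exos-2 included.

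The nucleases and cofactors of the exosome, with the further ring subunit genes exos-7 (RRP42) and exos-8 (RRP43), were described from a list chosen with these results known. This list also holds pelo-1, which is neither a nuclease nor a subunit gene of the complex, so its counts are not those of the exosome alone. Of its 9 matched genes, 2 had an IDR summit, dis-3 and pelo-1, against 3.47% of all protein-coding genes, and 5 had a joined candidate, against 43.0%. At dis-3, which RefSeq describes as the RRP44 exonuclease, the signal was 78.2 at rank 235 in the joined list, 64.2 at rank 211 in replicate 1 and 11.8 at rank 1454 in replicate 2, 116 bp upstream in the joined reads. It was in the top 542 of replicate 1 and not in that of replicate 2. At pelo-1, the homolog of the ribosome rescue factor Pelota, it was 77.6 at rank 237, with ranks 280 and 189 in replicates 1 and 2, and R74.7, a putative tRNA methyltransferase gene, shared the summit. The strongest of the rest were ttc-37 (signal 32.4, rank 745) and skih-2, the SKI2 helicase gene (25.1, rank 1644). The summit of skih-2 also lay in the window of F01G4.4. At crn-3 the joined signal was 15.0 at rank 14672, 2 bp upstream of a 5′ end, with rank 3767 in replicate 1 and no summit in the window in replicate 2. No list had a summit in the windows of exos-7, exos-8, the helicase gene mtr-4 or disl-2. Over the 11 matched genes of complex components (the 7 above with dis-3, crn-3, exos-7 and exos-8), 2 had an IDR summit, against 3.47% of all protein-coding genes, and 6 a joined candidate, a share near the 43.0% of all genes.

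**Figure D3:**
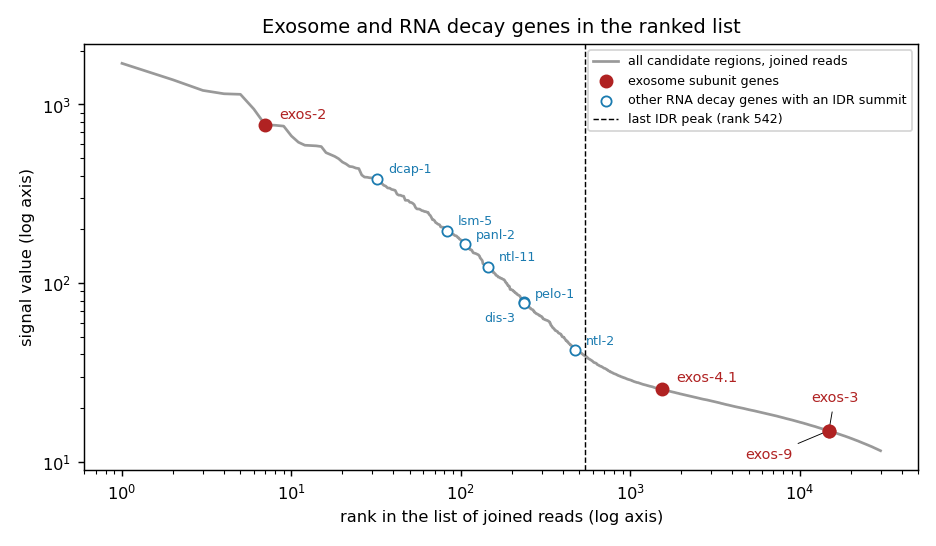
Signal against rank for the 30000 candidate regions of the joined reads (both axes log), with the exosome subunit genes in red and the other RNA decay genes that had an IDR summit in blue; the dashed line is rank 542. The exosome genes are spread along the curve, with exos-2 at rank 7, exos-4.1 at rank 1535 and exos-9 and exos-3 at ranks 14843 and 14879, while dis-3 and pelo-1 stand at ranks 235 and 237.

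Of 14 matched genes of decapping and decay from the 5′ end, 2 had an IDR summit. These were dcap-1, a decapping enzyme subunit gene (384, rank 32, and rank 30 in both replicates), and lsm-5, whose product is part of the LSm ring on U6 snRNA (197, rank 83, 454 bp upstream). The next were lsm-6 (31.2, rank 809) and patr-1 (26.7, rank 1283). Of 10 deadenylation genes 3 had one, namely panl-2 of the poly(A) nuclease (166, rank 106), ntl-11 of the CCR4-NOT complex (124, rank 145) and ntl-2 (42.4, rank 474). The next were ntl-3 (19.5, rank 5239) and parn-2 (16.9, rank 9683). None of the 9 genes of nonsense-mediated decay had one, with smg-2, the UPF1 helicase gene, at 26.8 and rank 1254 and smg-3 at 25.3 and rank 1579. Some of these summits also lay in the window of another gene. This was so at panl-2 (F31E3.12), lsm-6 (Y71G12B.13), patr-1 (dna-2) and smg-2 (haf-6). Over the 4 lists, 7 of 42 genes (16.7%) had an IDR summit, against 3.47% of all protein-coding genes, and 27 of 42 (64.3%) a joined candidate, against 43.0%. All 4 lists were chosen with earlier results of these data known, so these shares are not read as a property of RNA decay genes. No RNA decay gene of these lists reached the signal of 769 at exos-2.

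**Figure D4:**
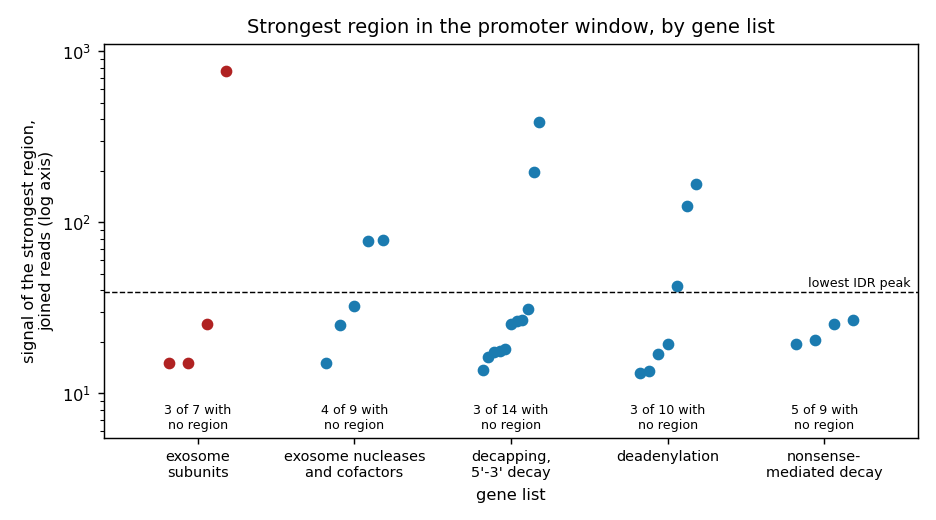
Signal of the strongest joined region with its summit in the promoter window (log axis) for each gene of the exosome list, in red, and of 4 other RNA decay lists, in blue. The dashed line is the weakest IDR peak, and the number of genes with no joined summit in the window is written below the points of each list. The list of nucleases and cofactors includes exos-7, exos-8 and pelo-1. The highest points are exos-2 at 769 and dcap-1 at 384, and no gene of nonsense-mediated decay lies above the line.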

How the data were processed

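The values used are the signal values (narrowPeak column 7) of 4 deposited ce11 lists, namely the IDR list, the joined candidates and the candidates of each replicate. Per the deposited notes, each candidate list came from the alignments of 1 or both replicates and a further file whose kind they do not state, and the IDR list came from the other lists. No control library was analysed here. For the aligner and the peak caller, names and versions were not given in the sources used here. The 4 lists on ce10 were not analysed here, and no coordinates were converted.

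Summits (region start plus peak offset, 1-based) were assigned with Python 3.11.15, pandas 2.3.3 and numpy 2.4.6 to Ensembl WBcel235 genes, with sequence from the RefSeq copy of that assembly. Ranks were taken by signal within each list. Words were searched on both strands. Assignment and word search were tested on simulated data with known answers.

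The members, gene lists, words and rules were chosen with earlier results of these data known. Named genes are the members, genes sharing their summits, the region nearest in rank to exos-2, and in each other list the genes with an IDR summit plus the next 2 by joined signal. Genes of the same-strand runs and other neighbours were picked with their values in view. Alternatives covered other windows, other assignments, a stricter peak set, coding starts and each replicate alone. Replicates are biological by their labels, and no p-value is given.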

Additional observations from a re-analysis of the deposited data

How the results depend on the processing

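The count of exosome genes with an IDR summit in the window stayed at 1, exos-2, with a window of 500 bp upstream and 100 bp downstream, with only the nearest gene, with the stronger part of the IDR peaks and with coding starts. It was 3 with 2000 bp upstream and 3 when regions overlapping the window by 1 bp counted, where exos-1 (signal 53.8) and exos-3 (46.0) joined it by the construction of these settings. It was 2 with the first gene of the same-strand run, an alternative chosen after seeing the data. No IDR list exists for 1 replicate, so the top 542 candidates of each replicate were used in its place. That count was 1 in replicate 1, exos-2, and 2 in replicate 2, exos-2 and exos-4.1. The share of all protein-coding genes was 3.47% in the main setting, 2.99% with the 500 bp window and 4.22% with 2000 bp. It was 3.64% when regions overlapping the window by 1 bp counted, and 3.41% with coding starts. With the nearest gene alone it was 2.25%, in the stronger part of the peaks 1.89% and with runs 4.88%. In the top 542 candidates of 1 replicate it was 3.46% for replicate 1 and 2.77% for replicate 2.

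Ranks of single genes with a replicate left out ran from 7 to 10 for exos-2 and from 390 to 14627 for exos-4.1. They were 1094 for exos-3 and 8229 for exos-9 with replicate 1 alone, and neither had a summit in the window in replicate 2. The cause of these differences was not tested. The count of summits with a word was 1 under each alternative of window and replicate. No paired analysis was possible because there is 1 group. Depth is unknown, so a gene without a candidate region was not detectable in these lists, which does not show that the protein is absent there.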

Other observations

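A few weak candidates near the exosome genes belong to no comparison above. A further joined summit of exos-2 lay 984 bp upstream (signal 14.1, rank 18069), with a signal of 15.6 and rank 3038 in replicate 1 and none in replicate 2, and it was shared with nlp-71. A further joined summit of exos-3 lay 285 bp upstream (13.4, rank 20805). For the genes with no summit in the window, the nearest joined summit lay 740 bp downstream of the 5′ end of exos-1 (14.6, rank 16034), 315 bp downstream of that of crn-5 (15.0, rank 14633) and 2398 bp downstream of that of exos-4.2 (17.9, rank 7543). The IDR summit 1134 bp upstream of exos-3 lay in the windows of F59C6.15, a snoRNA gene with its 5′ end 95 bp away, and of F59C6.18 and F59C6.19.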
